A study of Homo sapiens with 4 samples.

Results

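The ribosomal protein paralog pairs are genes of the cytosolic ribosome that occur in the human genome beside a close copy with a "-like" name. The 10 genes examined here were RPL39 with RPL39L, RPL22 with RPL22L1, RPL26 with RPL26L1, RPL36A with RPL36AL, and the like genes RPL7L1 and RPS27L, out of 62218 genes with a count entry. They were found by symbol, through 67 of 242542 annotated transcripts, and each gene took the count of its transcript with the largest mean count over the libraries. RPL7 and RPS27, the parents of RPL7L1 and RPS27L, were read only as denominators. For each of the 6 pairs the number of alignments at the like gene was given per 100 alignments at its parent, in naïve and in primed human embryonic stem cells (hESCs).

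A ribosome consists of a small 40S and a large 60S subunit, and each is built of ribosomal RNA and of proteins that are nearly all present as a single copy. Most ribosomal proteins come from a single expressed gene, so a second expressed gene of the same protein allows ribosomes of differing composition. RPL39L, best known from male germ cells, can take the place of RPL39 beside the exit tunnel of the 60S subunit, and RPL22L1 can take the place of RPL22. RPL7L1 differs from the others, since it resembles an assembly factor of the 60S subunit more than a part of the finished ribosome, and RPS27L is a known target gene of the tumour suppressor p53.

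The study compared methods that detect isoforms in long reads, and the naïve and primed hESCs served as its comparison of isoform usage between cell states. Complementary DNA from 4 samples, labelled as 2 replicates per state, was sequenced on a Nanopore instrument. H1 is an established line of primed hESCs. The primed hESCs were H1 cells kept in mTeSR1 medium on Matrigel and collected at 60 to 70% confluency, and the naïve hESCs had been derived from H1 primed hESCs and were collected at 50% confluency. The naïve state was induced and kept in FINE medium, which holds dasatinib, AZD5438, SB590885, PD0325901, Y-27632, LIF, activin A and bFGF, under low oxygen. Cell state and culture conditions therefore cannot be told apart. Nothing says that replicates were separate cultures, so the p-values measure only the spread between these samples, which may be technical.

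The coding sequences of RPL39 and RPL39L are shown first because the shift there depended most on the part of the gene that was counted, and those of RPS27 and RPS27L because theirs was the third shift that passed the test. They are the coding sequences without the stop codon from the annotated reference (GRCh38), read in the direction of the gene, and capitals mark the bases at which the paralogs differ.
RPL39: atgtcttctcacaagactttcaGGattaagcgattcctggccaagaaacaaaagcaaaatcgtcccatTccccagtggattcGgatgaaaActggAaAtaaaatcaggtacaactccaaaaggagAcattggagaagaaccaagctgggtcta
RPL39L: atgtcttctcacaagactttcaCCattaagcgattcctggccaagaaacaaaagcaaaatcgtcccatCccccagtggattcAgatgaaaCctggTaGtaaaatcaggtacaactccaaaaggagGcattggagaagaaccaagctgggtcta
RPS27: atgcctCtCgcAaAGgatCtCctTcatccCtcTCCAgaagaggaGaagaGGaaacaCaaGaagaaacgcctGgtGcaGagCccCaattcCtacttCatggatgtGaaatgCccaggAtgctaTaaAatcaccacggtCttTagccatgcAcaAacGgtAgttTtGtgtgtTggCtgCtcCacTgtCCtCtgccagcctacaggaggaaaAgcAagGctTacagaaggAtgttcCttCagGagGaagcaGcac
RPS27L: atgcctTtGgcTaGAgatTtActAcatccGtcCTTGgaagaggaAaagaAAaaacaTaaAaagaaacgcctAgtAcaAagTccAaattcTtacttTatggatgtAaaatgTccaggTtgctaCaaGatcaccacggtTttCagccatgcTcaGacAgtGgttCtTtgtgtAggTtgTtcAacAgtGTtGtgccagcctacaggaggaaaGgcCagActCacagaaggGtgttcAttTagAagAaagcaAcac

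RPL39 and RPL39L differ at 8 of 153 bases, in 7 codons, of which 3 are synonymous, so 4 of 51 residues differ and the proteins are 92.2% identical. RPS27 and RPS27L differ at 56 of 252 bases but at only 3 residues, which leaves proteins 96.4% identical over coding sequences 77.8% identical. RPL26L1 shows the same relation more sharply, with 69 of 435 bases and 2 residues unlike RPL26. RPL36AL differs from RPL36A at 32 of 318 bases and at 1 residue. RPL22L1 is 70.3% identical to RPL22 in protein, and RPL7L1 is 42.9% identical to RPL7. The pairs thus run from proteins that differ by a single residue to a protein that differs from its parent at more positions than it shares.

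Whether reads of a parent can be counted at its paralog bears on every ratio below. When the 12 reference transcripts and the 12 coding sequences were aligned to the genome with minimap2 in its spliced mode, each found its own gene first and 0 of 12 transcripts and 0 of 12 coding sequences aligned at the partner gene. This holds for reference sequences without errors, not for Nanopore reads, whose errors were not modelled. Several of the sequences did align elsewhere as well, at processed pseudogenes, which are intronless copies of a messenger RNA. The RPS27 transcript and the coding sequences of RPS27 and RPL7 each had 5 secondary alignments, all at pseudogenes. That is the most reported by default, so a weaker alignment of these sequences at RPS27L or RPL7L1 could not appear. Among the like genes, secondary alignments fell at RPL26P30 for RPL26L1, at RPL36AP21 for RPL36AL and at RPL7P22 and RPL7P46 for RPL7L1, and there were 0 for RPL39L, RPL22L1 and RPS27L. RPL26P30 had 888 and 890 counts in naïve and 601 and 637 in primed libraries, close to those of RPL26L1. The annotation names 19 pseudogenes after RPL39, 22 after RPL22, 17 after RPL26, 52 after RPL36A, 30 after RPS27, 61 after RPL7 and 12 after RPL7L1, and 0 after RPL39L, RPL22L1, RPL26L1, RPL36AL and RPS27L. The leading pseudogene of each of these 6 parents held nearly as many alignments as the gene itself: RPL39P3 had between 99.6% and 99.9% of the count of RPL39, and RPL22P1 between 91.9% and 96.2% of that of RPL22. Since alignments at several places were all counted, a parent's count can include reads that also aligned to its pseudogenes, while the pseudogenes named after RPL7L1 came to at most 1.66% of its count. That share leaves out RPL7P22 and RPL7P46, and no counts at these or at RPL36AP21 are given here.

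In the 30 bases around the annotated transcription start, parents and most like genes with an entry differ in a feature counted from that start. The choice of members did not use this feature. Messenger RNAs of ribosomal proteins usually begin with a C followed by a run of C and T, the terminal oligopyrimidine tract through which the mTOR pathway controls their translation. The windows below are from RefSeq (GRCh38.p14), 5′ to 3′ in the direction of the gene, with 10 bases before the annotated start and 20 from it, and capitals mark an unbroken run of C or T that begins at the start.
RPL39: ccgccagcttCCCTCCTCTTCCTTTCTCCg
RPL22: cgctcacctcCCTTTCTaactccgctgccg
RPL22L1: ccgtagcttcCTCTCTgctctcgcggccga
RPL26: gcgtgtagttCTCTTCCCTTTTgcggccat
RPL26L1: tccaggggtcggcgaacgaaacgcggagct
RPL36A: ctcgcggtttCTTTCTTTCCgcgccgatag
RPL36AL: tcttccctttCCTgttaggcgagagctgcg
RPL7L1: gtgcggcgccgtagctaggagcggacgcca
RPS27: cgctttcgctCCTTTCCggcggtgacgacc
RPS27L: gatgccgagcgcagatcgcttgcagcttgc

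A run of at least 5 pyrimidines that begins with C at the start was present in 5 of 5 parents with an entry (RPL39, RPL22, RPL26, RPL36A and RPS27) and in 1 of 5 like genes, RPL22L1. The run was 19 bases long in RPL39, 12 in RPL26, 10 in RPL36A, 7 in RPL22 and in RPS27, and 6 in RPL22L1. RPL36AL begins with a run of 3, and RPL26L1 (at both of its annotated starts), RPL7L1 and RPS27L have none. All 10 bases shown before the annotated start of RPL36AL are C or T as well. Its run, and with it the count of like genes, therefore depends on the exact start. Of all 35116 RefSeq start windows 4.07% hold such a run, against 43 of the 59 other ribosomal protein genes with an entry (72.9%). RPL39L and RPL7 had no window shown here. The search read only the strand of the gene, and a run is a description of the letters, not of a start used in these cells.

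Summed over all transcripts, the libraries held counts of 129276054 to 161548901, in which an alignment counts again for every transcript it overlaps. With 1 transcript per gene the sums were 23542375 to 30978783. The cell states were checked by marker genes with TMM scaling between libraries: 8 of 8 naïve markers were lower in primed hESCs and 6 of 6 primed markers were higher (edgeR's quasi-likelihood test, p-values adjusted by Benjamini-Hochberg). With library size scaling, 7 naïve markers were lower, 1 was not called, and the 6 primed markers were higher. Of 4 pluripotency markers shared by the states, 2 were higher in primed hESCs with TMM, 1 was lower and 1 did not pass. The naïve libraries also carried trophoblast markers, with a summed level in CPM (counts scaled to a common library size, here with TMM factors) of 2065 and 2395 against 5.30 and 4.60 in primed hESCs, where CGA, TFAP2A and HAND1 had at most 3 counts. Of the 7 trophoblast markers, 6 were lower in primed hESCs and 1 did not pass with TMM (log2 fold change 0.37). With scaling by library size in place of TMM, 6 were lower and 1 was higher. Amnion markers summed to 23.7 and 22.1 CPM in naïve and to 6.26 and 4.77 in primed libraries, and fibroblast markers to 4.34 and 4.04 against 33.8 and 40.3. The fibroblast markers did not move together, since of 3 tested COL1A1 was higher in primed hESCs, TWIST1 was lower and COL3A1 did not pass. The part of these cells in the values below was not tested. The direction of small differences depends on the scaling between libraries. TMM scaling centred the genes near 0, with a median log2 fold change of 0.08 over all 27633 genes tested (primed minus naïve), whereas scaling by library size put that median at 0.72. A ratio of paralog to parent within a library is free of this choice.

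RPL39L against RPL39 showed the largest shift when each gene took its transcript with the largest count. With counts summed over transcripts or with the shortest protein-coding transcripts, the shift of RPL22L1 against RPL22 was larger (log2 fold changes of 2.047 against 2.002 and of 2.07 against 0.88). RPL39 (ENSG00000198918, GRCh38 chromosome X 119786504 to 119791630, minus strand) was counted 41613 and 39838 times in naïve replicates 1 and 2, against 17012 and 21473 times in the primed replicates. RPL39L (ENSG00000163923, chromosome 3 187120948 to 187180908, minus strand) was counted 1643 and 1723 times in naïve replicates 1 and 2, against 4725 and 4301 times in the primed replicates. The parent was thus lower and the like gene higher in both primed libraries than in either naïve library. Per 100 alignments at RPL39 there were 3.95 and 4.33 at RPL39L in naïve hESCs and 27.8 and 20.03 in primed hESCs, or 4.14 ± 0.266 against 23.9 ± 5.48 (SD, n = 2). The groups did not overlap, and the ratio was 5.78-fold higher in primed hESCs, with an interval of 2 SE on either side from 4.15 to 8.03. The log2 fold change of 2.53 (SE 0.238) had an adjusted p of 2.63e-25 in edgeR's quasi-likelihood test with the log count of RPL39 as the offset of each library. In that fit, which scaled every gene to RPL39, 82.5% of all genes were called, so the call by itself says little about RPL39L. The exact permutation test (two-sided) gave p = 0.333 for this ratio, the smallest that 2 libraries against 2 allow. In these bulk libraries, fewer cells of a type and less RNA per cell cannot be told apart, here or in any result that follows.

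**Figure D1:**
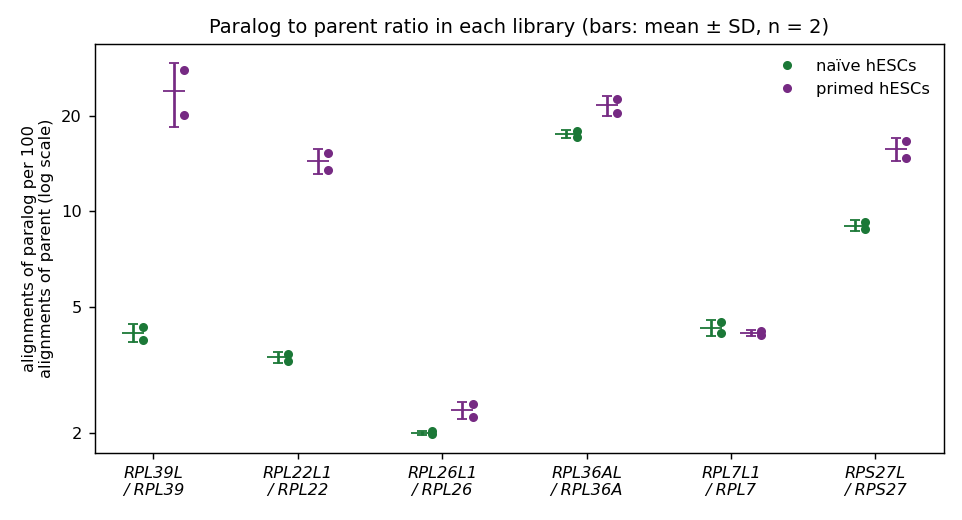
Alignments at each like gene per 100 alignments at its parent (vertical axis, log scale) in the naïve (green) and primed (purple) libraries, with points for libraries and bars for the mean ± SD (n = 2). RPL39L rose from 3.95 and 4.33 to between 20.03 and 27.8 and RPL22L1 from 3.57 and 3.37 to between 13.5 and 15.3, while the libraries of both states overlap only for RPL7L1.

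Most of the alignments counted at RPL39L in primed hESCs did not reach the coding exon. They were counted over the whole span with introns and without strand. They therefore cannot be split here into spliced and unspliced ones and may not be RPL39L messenger RNA. From read coverage and splice junctions, the paper proposes a long RPL39L isoform higher in primed hESCs and a short isoform at a similar level. Its isoform-specific RT-qPCR covered the usage of the long isoform and the presence of an isoform absent from the reference. Which upstream alignments counted here belong to these isoforms was not tested. The coding sequence of RPL39L lies in 1 exon (chromosome 3 187121148 to 187121300), inside the spans of the short transcripts RPL39L-201 and RPL39L-203, and RPL39L-202 extends far upstream of them. Alignments that missed the short span, and so hold no coding base, were 59.1% ± 1.69 (SD, n = 2) of the RPL39L count in naïve hESCs and 86.7% ± 1.78 (SD, n = 2) in primed hESCs. Over the short span alone there were 653 and 726 alignments in naïve hESCs and 569 and 626 in primed hESCs. Per 100 alignments at RPL39 these were 1.57 and 1.82 in naïve and 3.34 and 2.92 in primed hESCs, or 1.70 ± 0.179 against 3.13 ± 0.304 (SD, n = 2), again with no overlap. On the span that holds the coding exon the ratio was therefore 1.84-fold higher in primed hESCs (log2 fold change 0.88, SE 0.278, adjusted p = 0.00227 in edgeR's quasi-likelihood test) instead of 5.78-fold. With TMM scaling, RPL39L itself changed direction with this choice. Its log2 fold change was 1.12 (SE 0.144, adjusted p = 5.69e-09, edgeR) over RPL39L-202 and -0.48 (adjusted p = 0.00645, edgeR) over the short span, both with TMM scaling. The short span was not fitted with library size scaling, so a lower level of RPL39L there is shown for TMM only. No other like gene had such a gap except RPL7L1, whose lowest transcript held 48.7% of the count of the transcript used; among the remaining members the lowest transcript held at least 95.2%.

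**Figure D2:**
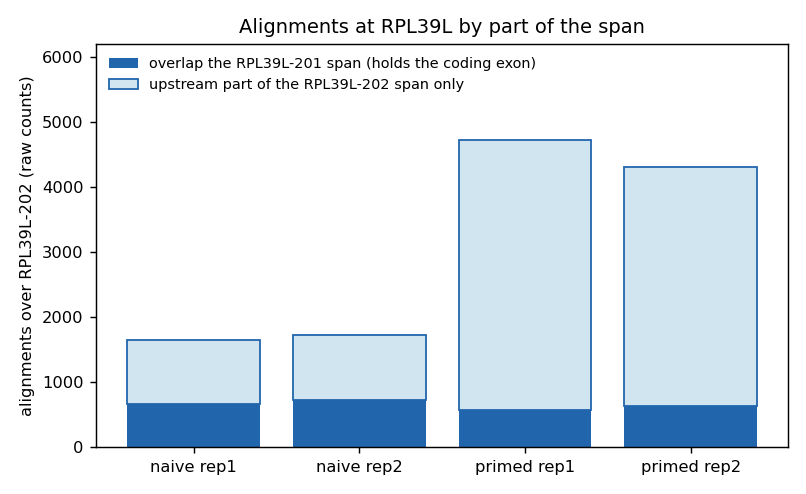
Alignments counted at RPL39L in each library (vertical axis, raw counts), split into those that overlap the short span with the coding exon (dark) and those only in the upstream part of RPL39L-202 (light). The dark part stays between 569 and 726 counts in all 4 libraries, and the light part is 990 and 997 in naïve and 4156 and 3675 in primed libraries.

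The genes whose pattern over the 4 libraries lay nearest to that of RPL39L, by Euclidean distance of centred log2 CPM among 12302 protein-coding genes whose counts averaged at least 50, were ARHGEF35 (distance 0.0122), BBIP1 (0.0217) and DUT (0.0218). DUT, the enzyme that hydrolyses dUTP, held 739 and 766 alignments in naïve and 2169 and 1948 in primed libraries. With 4 libraries in 2 states, many genes share such a pattern: 26.9% of all genes tested had a larger log2 fold change than RPL39L, and 30.7% a larger one than RPL22L1.

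RPL22L1 against RPL22 was the other large shift and did not depend on the transcript used. RPL22 (ENSG00000116251, chromosome 1 6185020 to 6199595, minus strand), an RNA-binding protein of the 60S subunit with a known part in T cell development, held 27502 and 31276 alignments in naïve and 14623 and 18130 in primed libraries. RPL22L1 (ENSG00000163584, chromosome 3 170864875 to 170870195, minus strand) held 981 and 1053 alignments in naïve and 2236 and 2448 in primed libraries. As at RPL39, the parent was lower and the like gene higher in both primed libraries. There were 3.57 and 3.37 alignments at RPL22L1 per 100 at RPL22 in naïve hESCs and 15.3 and 13.5 in primed hESCs, or 3.47 ± 0.142 against 14.4 ± 1.26 (SD, n = 2). The groups did not overlap, the ratio was 4.15-fold higher in primed hESCs (2 SE interval 3.05 to 5.65), and the log2 fold change of 2.05 (SE 0.222) had an adjusted p of 1.41e-19 in edgeR's quasi-likelihood test with RPL22 as offset, where 79.8% of all genes were called. The exact permutation p was 0.333. With the shortest protein-coding transcripts the ratio was 4.19-fold higher. RPL22L1 overlaps no other annotated gene, whereas the RPL22 span is shared with a readthrough gene on the same strand, ENSG00000285629, whose alignments cannot be separated from those of RPL22.

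RPL26L1 against RPL26 was nearly level between the states. RPL26 (ENSG00000161970, chromosome 17 8377516 to 8383193, minus strand), a 60S protein also known to bind the p53 messenger RNA, held 44722 and 45282 alignments in naïve and 24597 and 28274 in primed libraries. RPL26L1 (ENSG00000037241, chromosome 5 172958729 to 172969716, plus strand) had 889 and 919 in naïve and 607 and 638 in primed libraries. Both genes were lower in both primed libraries. Per 100 alignments at RPL26 there were 1.99 and 2.03 at RPL26L1 in naïve and 2.47 and 2.26 in primed hESCs, or 2.01 ± 0.0295 against 2.36 ± 0.149 (SD, n = 2). The libraries of the states did not overlap, but the difference of 1.18-fold (2 SE interval 0.918 to 1.51) did not pass edgeR's quasi-likelihood test with RPL26 as offset (adjusted p = 0.226), in a fit that called 79.5% of all genes, and the exact permutation p was 0.333. A ratio 1.51-fold higher or 0.918-fold as high is still within that interval. The RPL26 span overlaps ENSG00000263809 on the same strand and the antisense ENSG00000265749, whose transcript outside RPL26 held at most 0.959% of the RPL26 count, and the antisense RPL26L1-AS1 held 22 to 27 counts in every library.

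RPL36AL against RPL36A behaved alike, at a much higher ratio. RPL36A (ENSG00000241343, chromosome X 101391011 to 101396155, plus strand), a 60S protein near the site where transfer RNA leaves the ribosome, held 29313 and 30881 alignments in naïve and 14626 and 18876 in primed libraries. RPL36AL (ENSG00000165502, chromosome 14 49618530 to 49620626, minus strand) had 5022 and 5528 in naïve and 3307 and 3859 in primed libraries. Parent and like gene were both lower in each primed library. There were 17.1 and 17.9 alignments at RPL36AL per 100 at RPL36A in naïve and 22.6 and 20.4 in primed hESCs, or 17.5 ± 0.544 against 21.5 ± 1.53 (SD, n = 2). The states did not overlap, and the difference of 1.23-fold (2 SE interval 0.909 to 1.66) did not pass edgeR's quasi-likelihood test with RPL36A as offset (adjusted p = 0.200), which called 78.4% of all genes. The exact permutation p was 0.333. Without primed replicate 2 the same difference passed (log2 fold change 0.37, adjusted p = 0.0162, edgeR), so the call rests on 1 library. RPL36A lies within the readthrough gene RPL36A-HNRNPH2 and overlaps the antisense gene GLA, but GLA outside the overlap held only 1.15% to 1.57% of the RPL36A count.

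RPL7L1 against RPL7 was the only pair whose libraries overlapped between the states. RPL7, a 60S protein, held 21698 and 24814 alignments in naïve and 26916 and 26258 in primed libraries. RPL7L1 (ENSG00000146223, chromosome 6 42879616 to 42889900, plus strand) had 972 and 1025 in naïve and 1130 and 1072 in primed libraries. Per 100 alignments at RPL7 there were 4.48 and 4.13 at RPL7L1 in naïve and 4.20 and 4.08 in primed hESCs, or 4.31 ± 0.247 against 4.14 ± 0.0818 (SD, n = 2). The ratio was 0.962-fold as high in primed hESCs, with a 2 SE interval of 0.779 to 1.19, and passed neither edgeR's quasi-likelihood test with RPL7 as offset (adjusted p = 0.757, in a fit that called 68.5% of all genes) nor the exact permutation test (p = 0.667). Of the parents, RPL7 alone did not pass the test as lower in primed hESCs: its log2 fold change was -0.11 (adjusted p = 0.481, edgeR) with TMM, and with library size it was called higher in primed hESCs (0.53, adjusted p = 2.37e-04, edgeR).

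RPS27L against RPS27, the only pair of the 40S subunit, was the third shift. RPS27 (ENSG00000177954, chromosome 1 153990762 to 153992155, plus strand) held 38493 and 37347 alignments in naïve and 16209 and 20272 in primed libraries. RPS27L (ENSG00000185088, chromosome 15 63148249 to 63157477, minus strand) had 3374 and 3456 in naïve and 2695 and 2992 in primed libraries, raw counts from which no direction of RPS27L itself is read, since that turned with the scaling. There were 8.77 and 9.25 alignments at RPS27L per 100 at RPS27 in naïve and 16.6 and 14.8 in primed hESCs, or 9.01 ± 0.345 against 15.7 ± 1.32 (SD, n = 2). The states did not overlap, and the ratio was 1.74-fold higher in primed hESCs (2 SE interval 1.29 to 2.35, log2 fold change 0.80, SE 0.217, adjusted p = 3.41e-04 in edgeR's quasi-likelihood test with RPS27 as offset, where 82.6% of all genes were called). The exact permutation p was 0.333, and without naïve replicate 1 the call was lost (log2 fold change 0.76, adjusted p = 0.0504, edgeR). RPS27L overlaps no other annotated gene and has no pseudogene named after it.

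Gene by gene and with TMM scaling, 2 of the 10 genes were higher in primed hESCs, 7 were lower and 1 did not pass, with a median log2 fold change of -0.86. Over all 27633 genes tested, 70.0% were called, 37.4% as higher and 32.6% as lower, so the lower share among the paralog pairs stands above the background and the higher share below it. That background is not independent of the pairs, since it holds pseudogenes and overlapping genes at which alignments of ribosomal protein genes were counted too. RPL39 fell by 1.40 on the log2 scale (SE 0.147, adjusted p = 2.71e-11, edgeR), RPL36A by 1.16, RPL22 by 1.15 and RPL26 by 1.08. Among the like genes RPL39L rose by 1.12 and RPL22L1 by 0.89 (SE 0.145, adjusted p = 6.87e-07, edgeR), whereas RPL36AL fell by 0.87, RPL26L1 by 0.85 and RPS27L by 0.57 (adjusted p = 4.28e-04, edgeR). RPL7L1 had -0.17 and did not pass (adjusted p = 0.312, edgeR).

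**Figure D3:**
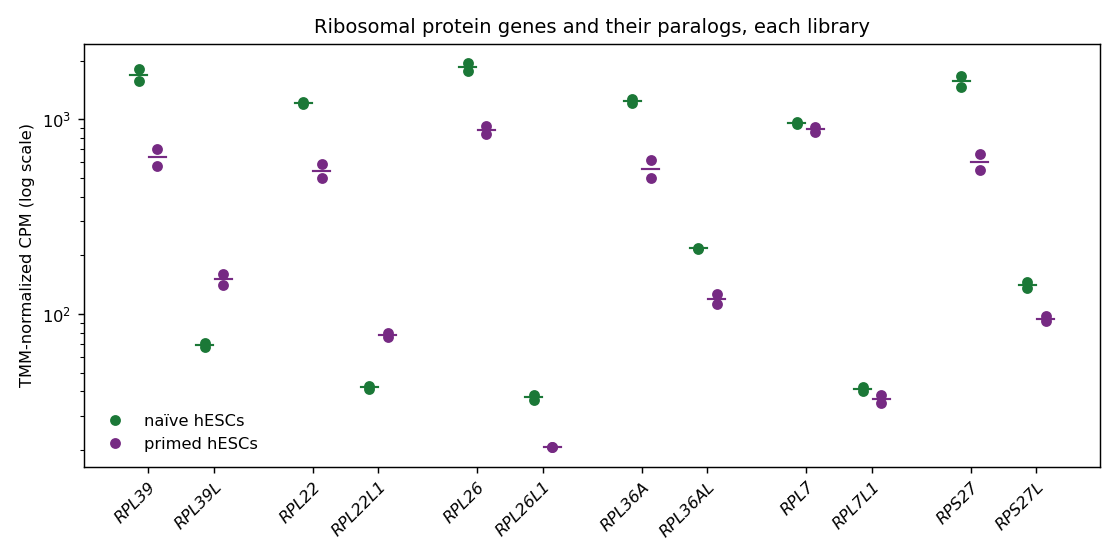
TMM-normalized CPM (vertical axis, log scale) of the 10 genes and of RPL7 and RPS27, ordered by pair, with points for the naïve (green) and primed (purple) libraries and lines for their means. RPL39L and RPL22L1 are the genes with primed points above the naïve ones, and the parents are lower in primed libraries. For RPL7 the difference is small (942 and 974 against 915 and 857 CPM) and did not pass the test.

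With library size scaling 3 of the 10 were higher, 4 lower and 3 not called, against a background of 72.5% called, 56.2% as higher and 16.3% as lower. RPL39L (1.76) and RPL22L1 (1.53) were higher and RPL39 (-0.75), RPL22 (-0.51), RPL36A (-0.52) and RPL26 (-0.44) lower under both scalings. The calls of RPL26L1 (-0.21, adjusted p = 0.198, edgeR) and RPL36AL (-0.23, adjusted p = 0.106, edgeR) were lost. RPS27L stood at 0.066 (adjusted p = 0.650, edgeR) and RPL7L1 at 0.47 (adjusted p = 0.0046, edgeR), each with the sign opposite to that under TMM. The sign of RPS27L and RPL7L1 on their own thus follows the scaling. RPL26L1 and RPL36AL kept their sign but not their calls, and the parents RPL39, RPL22, RPL26 and RPL36A kept both.

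**Figure D4:**
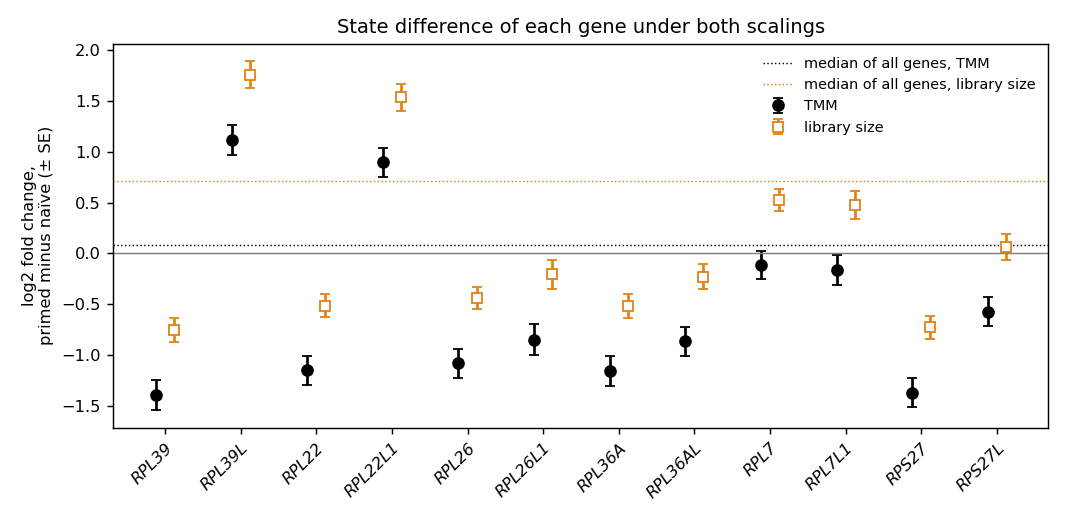
Log2 fold change of each gene, primed minus naïve (vertical axis, ± SE), with TMM scaling (black circles) and library size scaling (orange squares), and the median of all genes under each (dotted lines at 0.08 and 0.72). RPL39L and RPL22L1 lie above the median of all genes under both scalings, and every other gene lies below it.

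Levels of different genes were compared per kilobase of exonic length. In naïve hESCs the order was RPL39 (4319 ± 440 CPM per kilobase, SD, n = 2), RPL26 (3520 ± 220), RPL36A (1632 ± 56.1), RPL22 (587 ± 11.6) and then the like genes RPL36AL (322 ± 1.08), RPL39L (92.7 ± 3.49), RPL26L1 (53.7 ± 2.56), RPS27L (23.1 ± 1.25), RPL22L1 (22.1 ± 0.467) and RPL7L1 (9.16 ± 0.309). Only RPS27L and RPL22L1 overlapped among neighbours in that order. In primed hESCs RPL26 (1666 ± 116) and RPL39 (1640 ± 222) overlapped at the top, followed by RPL36A (732 ± 110) and RPL22 (264 ± 32.5). RPL39L (201 ± 19.1) now stood above RPL36AL (176 ± 14.2), a gap of about the SDs in which the nearest libraries had 187 and 186, and RPL22L1 (41.0 ± 1.44) above RPL26L1 (29.8 ± 0.191) and RPS27L (15.5 ± 0.699), with RPL7L1 lowest (8.16 ± 0.539). Every parent among the members stood above every like gene in both states. The order of the like genes depends on the division by length, and whether these alignment counts grow with exonic length was not tested. Undivided, RPL26L1 was lowest, with 37.3 CPM in naïve and 20.7 in primed hESCs against 41.2 and 36.7 for RPL7L1. In naïve hESCs RPS27L (141 CPM) then stood above RPL39L (69.5). The alignments of RPL39L also lay mostly outside its coding exon, and the RPS27L transcript used holds 6110 exonic bases. RPS27L-202, with 528 exonic bases, held nearly the same counts, so the RPS27L values per kilobase rest on the transcript chosen. Per kilobase, the naïve and primed ratios to the parent were 2.15 and 12.4 per 100 for RPL39L, 3.76 and 15.6 for RPL22L1, 19.7 and 24.2 for RPL36AL, and 0.519 and 0.904 for RPS27L.

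The other genes around the pairs moved as follows. Of 75 other cytosolic ribosomal protein genes, RPL7 and RPS27 among them, 65 were lower in primed hESCs with TMM, 10 did not pass and 0 were higher (edgeR; 0 were higher at an unadjusted p under 0.05 and 0 in DESeq2), with log2 fold changes from -2.05 to -0.03 and a median of -0.75. RPL22L1 and, over the span of RPL39L-202, RPL39L lay above all 75 of them, but over its short span RPL39L was at -0.48, inside their range. RPL39 lay near the low end, with 4 of the 75 lower, RPL22 and RPL36A had 11 lower and RPL26 had 15. RPL36AL, RPL26L1 and RPS27L lay inside the range, with 29, 31 and 52 lower. With library size scaling the 75 genes split into 11 higher, 27 lower and 37 not called, around a median of -0.11, so their common direction depends on the scaling as well.

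**Figure D5:**
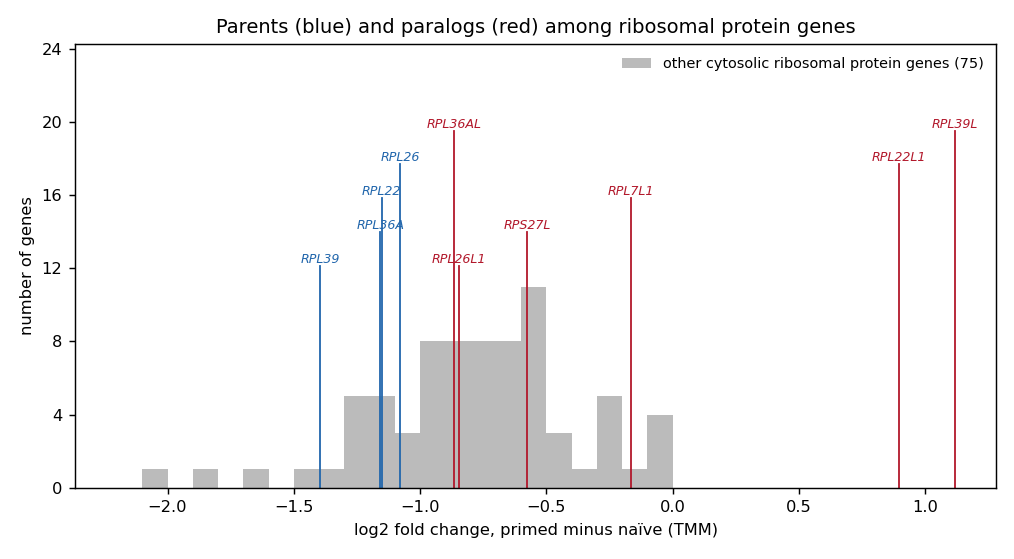
Number of other cytosolic ribosomal protein genes (grey bars, 75 genes) by log2 fold change, primed minus naïve with TMM (horizontal axis), with lines for the parents (blue) and like genes (red) among the 10 members. RPL39L at 1.12 and RPL22L1 at 0.89 lie beyond the highest of the 75, at -0.03; over the short span with the coding exon, not drawn, RPL39L was at -0.48.

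Of the tissue-restricted ribosomal protein paralogs RPL3L and RPL10L, 1 had enough counts to be tested and was lower in primed hESCs with TMM (log2 fold change -1.28), a call that was lost with library size scaling (-0.65). Among 28 assembly factors of the 60S subunit, the setting of RPL7L1, 1 was higher, 13 were lower and 14 did not pass, with a median of -0.22. With library size scaling these were 15 higher, 4 lower and 9 not called, with a median of 0.42. Among 18 known p53 target genes, the setting of RPS27L, 3 were higher, 12 lower and 3 not called, with a median of -1.21, and with library size scaling 6 were higher and 9 lower.

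Transcript length moved with the differences. With TMM the median log2 fold change of protein-coding genes was -0.38 for exonic lengths under 500 bases (341 genes, with RPL39 and RPS27), -0.26 from 500 to 1000 bases (1553 genes, with RPL39L, RPL26, RPL26L1, RPL36A and RPL36AL), -0.08 from 1000 to 2000 (2949 genes, with RPL22L1 and RPL7), 0.03 from 2000 to 4000 (5428 genes, with RPL22) and 0.20 from 4000 bases (5631 genes, with RPL7L1 and RPS27L). By the transcripts used, RPS27 and RPS27L fall in the shortest and the longest of these classes. The shorter RPS27L-202, with 528 exonic bases, held 3343 and 3424 alignments in naïve and 2674 and 2971 in primed libraries. These are close to the counts of the transcript used, so the class of RPS27L rests on the choice of transcript. RPL26 and RPL26L1, and RPL36A and RPL36AL, share a class. RPL39L and RPL39 lie in neighbouring classes, and RPL22L1 lies in a shorter class than RPL22. The part of length in the ratio of RPS27L to RPS27 was not tested.

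The libraries of a state also differed at the parents. Primed replicate 1 held 79.2% of the RPL39 count of primed replicate 2, 77.5% of that of RPL36A, 80.7% of RPL22, 80.0% of RPS27 and 87.0% of RPL26, but 102.5% of RPL7 and 109.9% of RPL39L. The ratios of RPL39L, RPL22L1, RPL26L1, RPL36AL and RPS27L were accordingly all higher in primed replicate 1, and with each library left out in turn the log2 fold change of the ratio ran from 2.28 to 2.75 for RPL39L and from 1.96 to 2.14 for RPL22L1.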

How the data were processed

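The authors aligned Nanopore cDNA reads of 2 naïve and 2 primed H1 libraries to GRCh38 with minimap2, and featureCounts 2.0.0 assigned the alignments to transcripts of Ensembl release 105. The deposited values are raw counts for each library, not pooled. Per the file headers, the span of a transcript from start to end was counted, introns included and strand ignored, an alignment counted for every transcript it overlapped (-O), and all alignments of a read counted (-M), so the counts are of alignments, not of molecules. Counts per transcript summed to 129276054 to 161548901 per library, and the limit given for a count of 0 covers counting error only.

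Gene symbols came from GENCODE release 44, in which 242542 of 244825 transcript identifiers were found, and the others held 0.840% to 1.15% of the counts. The 27633 genes that reached 10 counts in 2 or more libraries were tested with edgeR 4.0.16 in R 4.3.3 (TMM, quasi-likelihood test, two-sided, Benjamini-Hochberg adjustment over all genes tested, threshold 0.05). For ratios, the log count of the parent replaced the TMM offset in a fit over all genes. SE is the log2 fold change divided by the square root of F, so the 2 SE intervals include the spread between libraries. Reference sequences were aligned with minimap2 2.31. Where 0 was counted, 3 counts remain possible, which is 0.0968 to 0.127 CPM of the gene-level library sizes. Simulated counts with known fold changes were used to test the fits.

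Alternatives were library size scaling, DESeq2 1.42.0, no filter and a filter of at least 50 counts, counts summed over transcripts, the shortest protein-coding transcript, counts per exonic kilobase for the level of each ratio, a replicate block, and each library left out. All members, RPL7 and RPS27 are named, with the 3 genes nearest to RPL39L, overlapping genes and pseudogenes named after members. The members and gene lists were chosen with earlier results of these data known. The aligned reference sequences, start windows, length classes and the split of RPL39L were added after the counts were seen.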

Additional observations from a re-analysis of the deposited data

How the results depend on the processing

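The ratios of RPL39L to RPL39 and of RPL22L1 to RPL22 stayed past the threshold in every alternative run, from 0.88 (shortest protein-coding transcript) to 2.75 for RPL39L and from 1.96 to 2.14 for RPL22L1 on the log2 scale. Of 186 values of members, parents and ratios under the alternatives, 177 kept their side of the threshold and, where called, their direction, and 4 of these, not called with or without the library, changed sign with a library left out (RPL7, -0.20 to 0.10; RPL7L1, -0.26 to 0.06; the ratio of RPL7L1 to RPL7, -0.11 to 0.0034). With library size, RPL7 (0.53), RPL7L1 (0.47) and RPS27L (0.066) changed sign, RPL26L1 (-0.21) and RPL36AL (-0.23) lost their calls, and the calls became 4 members lower, 11 and 27 other ribosomal protein genes higher and lower, 15 and 4 assembly factors, and 6 p53 targets higher. The shift of the median from 0.08 to 0.72 is of that size. With the shortest protein-coding transcript and TMM, RPL39L was at -0.48, since that transcript leaves out its upstream alignments, and 1 member and 2 assembly factors were higher. The filter of at least 50 counts gave 3 assembly factors higher. The state with 1 library left was assumed to vary like the other. Leaving out each library in turn gave -0.69 to -0.36 for RPS27L, whose call was lost without primed replicate 1 (adjusted p = 0.0845, edgeR), 0.71 to 0.88 for the ratio of RPS27L, 0.22 to 0.37 for that of RPL36AL, 1 to 4 assembly factors higher and 7 to 12 lower (4 and 7 without primed replicate 2, 2 higher without naïve replicate 2), and 45 to 68 other ribosomal protein genes lower. The cause was not tested.

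The replicate numbers pair nothing known: deviations of same-numbered libraries correlated by 0.0713. With the replicate block 3 assembly factors were higher, no call of a member or ratio changed and no other count moved by over 1.5 times. With 607 or more counts for every member in every library, the 2 libraries per state limit the precision more than the depth does.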
